A study of Mus musculus with 93 samples.

Results

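Livers of PPARα −/− mice were set directly against livers of wild-type (WT) mice, all taken 6 h after 1 oral dose of a synthetic triglyceride that carried only docosahexaenoic acid (C22:6), the longest n-3 fatty acid of fish oil. This comparison comprised 10 of the 93 arrays of the series, 5 PPARα −/− and 5 WT livers, chosen by genotype and treatment as labelled and by no measured value. Every mouse was a male, had been fasted for 4 h before a gavage of 400 µl, and gave 1 liver and 1 Affymetrix whole-genome mouse GeneChip array. Beside them stood the vehicle livers of the same run (5 PPARα −/− and 3 WT mice given carboxymethyl cellulose) and, as a separate set, the vehicle livers of a later run (4 PPARα −/− and 4 WT mice). The PPARα −/− mice carry the null allele in every cell and are labelled as strain 129S4/SvJae, whereas the WT mice are labelled 129S1/SvImJ. Genotype and substrain therefore cannot be told apart in any difference given here. The mice given C22:6 and those of the later run are labelled as 8 to 24 weeks old, and the vehicle mice of the first run as 12 to 20 weeks old, so that treatment and labelled age range also coincide in the first run.

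PPARα is a nuclear receptor that binds fatty acids and, as a dimer with RXR, switches on genes in the hepatocyte when fat reaches the liver from adipose tissue or from a meal. Its known targets carry fatty acids into mitochondria, peroxisomes and microsomes and break them down there, and polyunsaturated fatty acids such as C22:6 are among its natural ligands. The receptor is also known for restraining inflammatory genes in the liver. The files gave linear signals made by GC-RMA, a method that corrects for the base composition of the probes. They are reported here as log2 signals, so that a difference of 1 equals a 2-fold difference. All differences are PPARα −/− minus WT.

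Ppara itself was represented by 3 probesets, all lower in the PPARα −/− livers. The probeset with the largest difference read 7.06, 5.94, 6.56, 7.41 and 5.95 in the PPARα −/− livers after C22:6, against 8.84, 8.86, 8.95, 9.19 and 9.11 in the WT livers, a difference of -2.41 (SE 0.22, adjusted p = 3e-06). The brightest probeset read 9.0 to 10.29 in the PPARα −/− livers and 10.94 to 11.34 in the WT livers, a difference of -1.24 (SE 0.21, adjusted p = 0.00045). None of the probesets overlapped between the genotypes after C22:6, yet all kept signal in the PPARα −/− livers. The files do not say which part of the transcript each probeset reads relative to the disrupted part of the gene, so these values bear on the labels only through their direction.

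The arrays were alike in brightness, with a median signal between 136.5 and 143.3 on the 18 arrays of the first run used here. Replicate 2 of the PPARα −/− C22:6 livers stood apart from the rest on the second principal component, at -59.8, and had the lowest array weight (0.344). Replicate 5 of the PPARα −/− C22:6 livers (0.416) and replicate 2 of the WT vehicle livers (0.455) came next, and replicate 5 lay as far from the mean of its group as replicate 2 (root mean square 0.508 and 0.506). Albumin (Alb), a defining hepatocyte marker, was bright: it read 13.68 to 13.89 in the PPARα −/− livers and 13.69 to 13.94 in the WT livers after C22:6 (adjusted p = 0.63). The mean over 13 hepatocyte markers was 11.95 to 12.34 and 11.81 to 12.18 in these groups. Of the 13 markers, 1 lay below the 10th percentile of all probesets on every WT C22:6 array.

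A total of 2819 of 11412 probesets (24.7%) differed between the genotypes after C22:6 at an adjusted p under 0.05 (limma's moderated test with Benjamini-Hochberg adjustment). Of these, 1409 (12.3%) were higher and 1410 (12.4%) lower in the PPARα −/− livers. Counted over 6661 genes, each taken by its brightest probeset, 884 were higher (13.3%) and 856 were lower (12.9%), and a gene list has to be read against these shares. The same contrast called 413 probesets (3.62%) in the vehicle livers of the first run, 146 higher (1.28%) and 267 lower (2.34%), and 289 (2.53%) in those of the later run, 113 higher (0.99%) and 176 lower (1.54%). These counts are not on an equal footing, since 5 mice faced 5 after C22:6, 5 faced 3 in the first-run vehicle groups and 4 faced 4 in the later run. Of the 2819 probesets, 352 were also called in the first-run vehicle livers, which is 12.5% of the calls after C22:6 and 85.2% of the calls with the vehicle. All 352 pointed the same way in both.

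**Figure D1:**
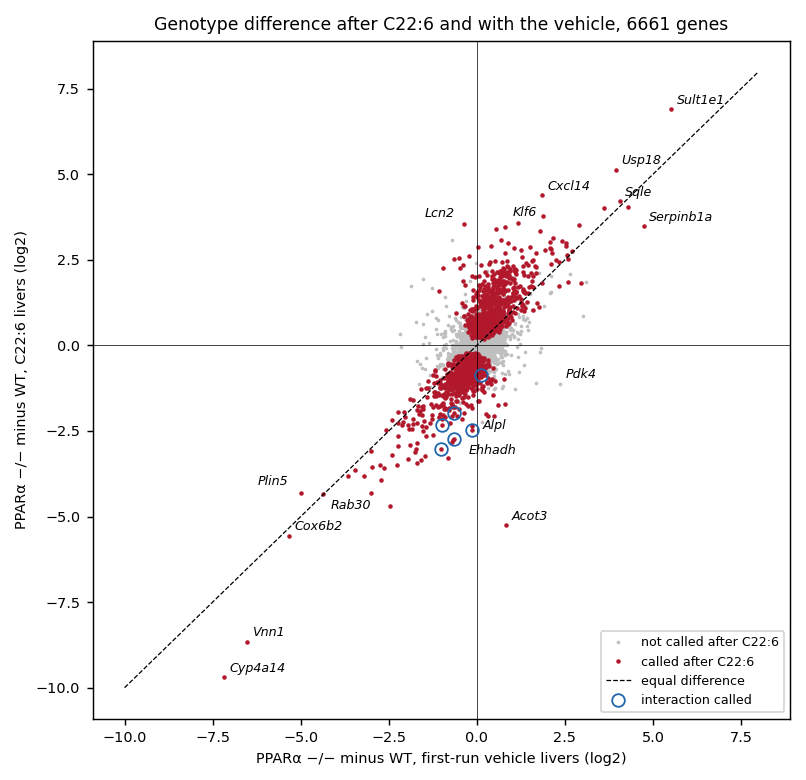
Each point is 1 of 6661 genes, with the PPARα −/− minus WT difference in the first-run vehicle livers on the x axis and after C22:6 on the y axis, both on the log2 scale; red points were called after C22:6 and blue circles mark genes whose 2 differences differed from each other. Cyp4a14 and Vnn1 lie far below 0 on both axes and Sult1e1 far above, whereas Acot3 lies at 0.82 with the vehicle and at -5.25 after C22:6.

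The difference was larger after C22:6 than with the vehicle for 2637 of the 2819 probesets (93.5%), and it had the same sign for 2490 (88.3%). These probesets were chosen by their difference after C22:6, which favours the larger value there. Across all 11412 probesets the differences of both settings, which share no array, correlated with a Pearson r of 0.679 (Spearman 0.542). Probesets are not independent replicates, and both settings compare the same strains. The difference of the differences itself was called for 17 probesets (0.149%), 1 positive (0.00876%) and 16 negative (0.14%), which are described at the end.

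The 2 largest deficits of PPARα −/− livers were those of Cyp4a14 and Vnn1, both known targets of PPARα. Cyp4a14, a cytochrome P450 that oxidises the far end of fatty acids (ω-oxidation), read 1.86, 2.72, 2.38, 2.38 and 2.68 in the PPARα −/− livers after C22:6, against 12.55, 12.56, 11.09, 12.27 and 12.04 in the WT livers. The PPARα −/− signals lay below the 10th percentile of all probesets on every array, a floor between 4.86 and 5.13, so only a bound holds there: Cyp4a14 was at least 136-fold lower (adjusted p = 4.3e-11). WT livers given the vehicle read 7.63, 9.28 and 10.50 and PPARα −/− vehicle livers 1.86 to 2.26, so the groups were also separate without C22:6, at a smaller measured difference (-7.17 with the vehicle, adjusted p = 6.9e-08, and -9.70 after C22:6). Vnn1, which encodes the pantetheinase vanin-1 that releases a precursor of coenzyme A, read 1.87, 2.07, 2.16, 1.93 and 2.51 in the PPARα −/− livers and 11.25, 10.98, 9.90, 10.48 and 11.23 in the WT livers after C22:6. It was at least 54.1-fold lower (adjusted p = 1.1e-11), and it too was dim in every PPARα −/− liver with either treatment. Cyp4a31, a relative of Cyp4a14, was at least 5.07-fold lower (adjusted p = 9.1e-06), and Aldh3a2, the aldehyde dehydrogenase that acts on long-chain fatty aldehydes, was lower by 2.90 on the log2 scale (SE 0.33, adjusted p = 8e-06). Of 8 measured genes of ω-oxidation, 4 were lower and none was higher after C22:6, with a median difference of -0.90; over all genes the median was 0.01.

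**Figure D2:**
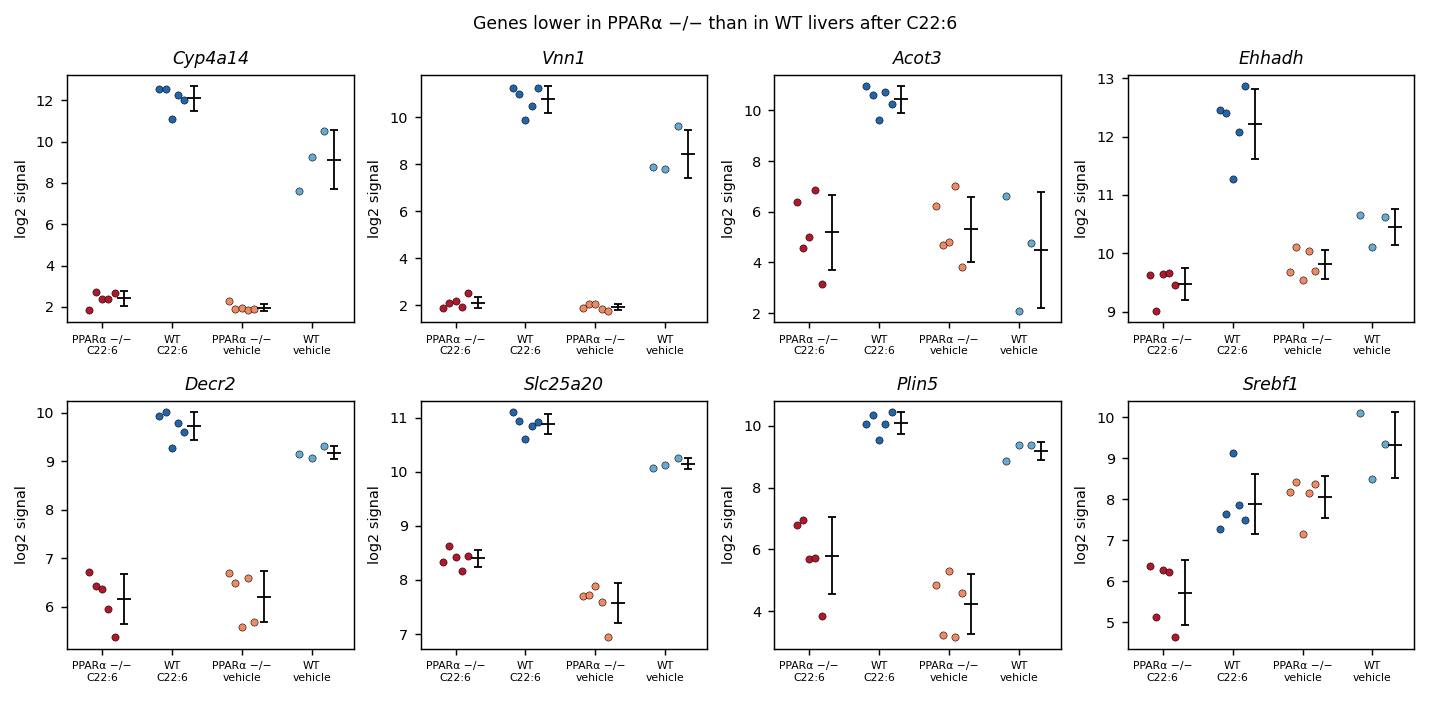
Log2 signal of 8 genes on every array of the first run, with the mean and SD beside the points; the groups run PPARα −/− C22:6, WT C22:6, PPARα −/− vehicle and WT vehicle, and the y axes differ in range. No point of a PPARα −/− C22:6 liver reaches a WT C22:6 point in any of the 8 panels, whereas the vehicle groups overlap for Acot3. All 8 genes were called after C22:6 and picked with their values known, so their separation is no further evidence.

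Peroxisomes shorten very long and polyunsaturated fatty acids, C22:6 among them, and their enzymes made up one of the lists with most lower genes. Of 18 measured genes of peroxisomal fatty acid oxidation, 13 were lower and 1 was higher after C22:6 (median -1.32), against 7 lower and none higher with the vehicle of the first run (median -0.40). Ehhadh, the bifunctional enzyme of the middle steps of the peroxisomal cycle, read 9.62, 9.01, 9.64, 9.66 and 9.46 in the PPARα −/− livers and 12.45, 12.41, 11.27, 12.07 and 12.87 in the WT livers. The difference was -2.74 (SE 0.23, adjusted p = 3.5e-07). With the vehicle it read 9.54 to 10.10 in the PPARα −/− livers and 10.10 to 10.65 in the WT livers (adjusted p = 0.23), so that the groups came close to each other. Decr2, the peroxisomal reductase that is needed for double bonds of polyunsaturated fatty acids, read 6.71, 6.43, 6.36, 5.96 and 5.37 in the PPARα −/− livers and 9.93, 10.01, 9.28, 9.80 and 9.60 in the WT livers after C22:6. It was lower by about as much with both treatments, by 3.56 after C22:6 and by 2.97 with the vehicle on the log2 scale. The thiolase Acaa1b (-2.35) and the thioesterase Acot8 (-2.51) were lower as well, whereas catalase (Cat, -0.25) is an example of a peroxisomal gene for which no difference was called. Of 16 measured genes of peroxisome assembly and division 11 were lower and none was higher (median -0.75). Among them, Pex11a, which drives peroxisome division, was lower by 2.62 on the log2 scale (SE 0.27, adjusted p = 3.3e-06), and the membrane protein Pxmp4 by 2.26 (SE 0.19, adjusted p = 3.2e-07).

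Acyl-CoA thioesterases split fatty acyl-CoA into free fatty acid and coenzyme A. Acot3, a peroxisomal member, read 6.40, 4.56, 4.99, 6.84 and 3.16 in the PPARα −/− livers after C22:6, against 10.97, 10.62, 9.62, 10.73 and 10.25 in the WT livers, a difference of -5.25 (SE 0.81, adjusted p = 0.00018). Only 2 of the 5 PPARα −/− arrays were above the floor, and with the others set to the floor the signal was 27.3-fold lower. With the vehicle the groups overlapped fully, with 3.82 to 7.0 in the PPARα −/− livers and 2.08 to 6.61 in the WT livers. Acot1, the cytosolic form, was lower by 2.07 (SE 0.37, adjusted p = 0.00065), Acot2, the mitochondrial form, by 2.08 (SE 0.26, adjusted p = 2.2e-05) and Acot4 by 2.01 on the log2 scale (SE 0.30, adjusted p = 0.00015). None of Acot1, Acot2, Acot3 and Acot4 was called with the vehicle. By their brightest probesets, none of them was called when the difference after C22:6 was tested against that with the vehicle. These family members are close in sequence and in position, so their probesets may share transcripts. In all, 6 of 10 measured thioesterases were lower and 1, Acot9, was higher after C22:6, while 1 was lower with the vehicle; the median was -1.53 after C22:6 and 0.02 with the vehicle.

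The RXR–PPARα dimer is known to bind direct repeats of the core motif AGGTCA with 1 base between them. RefSeq promoter windows (build GRCm38.p6, 250 bases before to 50 after the start) were used for 18 of the 22 measured genes of a list of established PPARα targets. A gene with several windows counted once, by a match in any of them. The core motif was found on either strand for 8 of the 18 genes (44.4%). It was found for 18.1% of all 27025 genes with a window and for 15.8% of the 5475 measured ones. The share was 16.1% among genes that were lower and 18.3% among genes that were higher in PPARα −/− livers after C22:6. The full direct repeat was found for none of the 18 genes and for 13 of all 27025. The promoters of Acot3, whose difference was not called with the vehicle, and of Plin5, a droplet gene lower with both treatments, are shown with the core motif in capitals. The Acot3 match begins 19 bases and the Plin5 match 14 bases after the start, and the Acot3 match is on the other strand. The Acot3 window is chr12:84051894-84052193 on the plus strand and the Plin5 window chr17:56117249-56117548 on the minus strand.
Acot3: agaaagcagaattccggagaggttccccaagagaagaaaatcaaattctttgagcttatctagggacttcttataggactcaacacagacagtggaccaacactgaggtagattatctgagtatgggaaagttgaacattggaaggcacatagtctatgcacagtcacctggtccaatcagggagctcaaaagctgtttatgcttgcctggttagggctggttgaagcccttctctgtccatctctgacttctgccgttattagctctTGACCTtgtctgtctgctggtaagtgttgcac
Plin5: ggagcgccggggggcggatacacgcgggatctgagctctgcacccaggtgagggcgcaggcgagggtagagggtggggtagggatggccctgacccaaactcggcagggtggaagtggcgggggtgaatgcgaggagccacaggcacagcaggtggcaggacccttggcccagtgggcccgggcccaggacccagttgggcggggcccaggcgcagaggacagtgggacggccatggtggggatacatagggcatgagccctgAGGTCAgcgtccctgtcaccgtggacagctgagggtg

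Mitochondrial fatty acid oxidation was the most evenly lower of the larger lists. Of 19 measured genes 17 were lower and none was higher after C22:6 (median -1.04), and 10 were lower with the vehicle of the first run (median -0.57). The mean over the list lay between 9.04 and 9.25 on the PPARα −/− arrays and between 10.04 and 10.42 on the WT arrays after C22:6, so that no array of one genotype reached the other. The acyl-CoA dehydrogenases, which take the first step for chains of decreasing length, were lower by 1.49 (Acadvl), 1.04 (Acadl) and 0.59 (Acadm) on the log2 scale. Hadha, the α-subunit of the trifunctional protein, was lower by 1.13, and Etfdh, which passes the electrons on to the respiratory chain, by 1.85 (SE 0.10, adjusted p = 1.6e-09). The 2 isomerases that move double bonds of unsaturated fatty acids, Eci1 and Eci2, were lower by 2.46 and 1.93 on the log2 scale. Eci1 read 8.24, 7.82, 7.92, 8.02 and 8.44 in the PPARα −/− livers and 10.59, 10.52, 10.21, 10.35 and 11.05 in the WT livers (adjusted p = 5.8e-09). Only Acad10 (-0.24) and Etfa (-0.18) of the list were not called.

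The carnitine shuttle, which brings long-chain fatty acids across the inner mitochondrial membrane, differed by about as much with the vehicle as after C22:6. Of 6 measured genes, 5 were lower in both settings, with a median of -2.30 after C22:6 and -1.97 with the vehicle. Slc25a20, the carnitine-acylcarnitine exchanger, read 8.33, 8.62, 8.42, 8.17 and 8.44 in the PPARα −/− livers and 11.10, 10.93, 10.61, 10.84 and 10.92 in the WT livers after C22:6. Its difference was -2.48 (SE 0.15, adjusted p = 6.5e-09) after C22:6 and -2.57 with the vehicle. Crat, the carnitine acetyltransferase, was lower by 2.66, Slc22a5, the carnitine importer of the plasma membrane, by 2.31, and Cpt2, the inner palmitoyltransferase, by 2.29 on the log2 scale. Cpt1a, the outer palmitoyltransferase that controls the entry, was the exception. It read 10.84 to 11.40 in the PPARα −/− livers and 10.80 to 11.19 in the WT livers, with a difference of 0.07 (SE 0.16, adjusted p = 0.78).

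Genes of lipid droplets and of fat breakdown also differed, and 8 of 16 were lower and 2 higher after C22:6 (median -0.69). Plin5, which coats droplets and ties them to mitochondria, read 6.80, 6.94, 5.70, 5.71 and 3.84 in the PPARα −/− livers, against 10.06, 10.36, 9.56, 10.06 and 10.45 in the WT livers. It was 19.7-fold lower (difference -4.30, SE 0.51, adjusted p = 1.4e-05), and with the vehicle its difference was -4.98. Fitm2, needed to form droplets at the endoplasmic reticulum, was lower by 2.84 (SE 0.21, adjusted p = 7.9e-08). G0s2, an inhibitor of the adipose triglyceride lipase, was lower by 2.81 (SE 0.56, adjusted p = 0.0018), and Ces1d, a carboxylesterase that acts on stored triglyceride, by 2.36 (SE 0.42, adjusted p = 0.00065). Neither G0s2 nor Ces1d was called with the vehicle (differences of -0.69 and -0.14). Tested against these vehicle differences, those after C22:6 were not called as other (adjusted p = 0.38 for G0s2 and 0.22 for Ces1d). Plin2, the common droplet coat, read 11.11 to 12.34 in the PPARα −/− livers and 11.83 to 12.54 in the WT livers, with overlapping groups and a difference of -0.59 (adjusted p = 0.084). Cidec, a droplet fusion factor, overlapped as well (difference -2.11, adjusted p = 0.063).

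Among the established PPARα targets, a list that shares most of its genes with those above, 16 of 22 were lower after C22:6 and none was higher (median -2.09), and 11 were lower with the vehicle (median -0.83). The secreted hormone Fgf21, a fasting signal, read 2.44, 2.66, 2.80, 2.69 and 4.56 in the PPARα −/− livers and 7.69, 6.99, 5.06, 6.74 and 7.69 in the WT livers. It was at least 3.53-fold lower (adjusted p = 1.5e-05). Angptl4, the secreted inhibitor of lipoprotein lipase, was lower by 1.11 on the log2 scale (SE 0.25, adjusted p = 0.0037) and by 1.21 with the vehicle. Pdk4, the kinase that turns off pyruvate dehydrogenase, was not called. It read 5.89, 9.03, 5.71, 6.55 and 7.07 in the PPARα −/− livers after C22:6 and 9.54, 8.09, 5.68, 7.86 and 8.70 in the WT livers, a difference of -1.12 (SE 0.65, adjusted p = 0.22) with overlapping groups. With the vehicle the PPARα −/− livers read 5.59 to 6.73, above the WT livers at 2.89, 4.26 and 3.66, and there the difference was 2.37 (adjusted p = 0.097).

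Replicate 3 of the WT C22:6 livers read lower than its group for this set of genes. Over the 57 called genes of the oxidation, peroxisome, thioesterase and target lists that were lower in PPARα −/− livers, it was the lowest of the 5 WT arrays for 47. It lay above the PPARα −/− livers for Cyp4a14, Vnn1, Ehhadh, Acot3 and Plin5 all the same, as the plots of single genes show.

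Ranked by the log2 signals as measured, also those below the floor, Rfx4, Pdzrn3, Cda, Rab30, Cox6b2 and Gm2788 were among the genes with the largest deficits. The bounds given below for Rfx4, Pdzrn3 and Cda do not place them there. None of these genes is known as an enzyme of fat oxidation. Cox6b2, an isoform of a cytochrome c oxidase subunit best known from testis, read 1.28, 1.52, 2.19, 1.80 and 2.04 in the PPARα −/− livers and 7.64, 7.26, 6.75, 7.38 and 7.62 in the WT livers after C22:6. It was at least 4.99-fold lower (adjusted p = 1.1e-11), and the difference was -5.33 with the vehicle and -5.21 in the later run, so it hardly changed with treatment or run. Of 40 genes of the respiratory chain 3 were lower and none was higher (median -0.11), with 5 and 6 lower without replicate 1 and replicate 4 of the PPARα −/− C22:6 livers. Rab30, a small GTPase of the Golgi, read 3.38, 6.50, 3.80, 2.96 and 5.95 in the PPARα −/− livers and 9.25, 9.24, 8.11, 8.50 and 9.21 in the WT livers, a difference of -4.34 (SE 0.55, adjusted p = 2.8e-05). Only 2 of the 5 PPARα −/− arrays were above the floor for it, and with the others set to the floor it was 10.2-fold lower. Rfx4, a transcription factor, was at least 1.31-fold lower, Pdzrn3, a ubiquitin ligase, at least 2.67-fold and Cda, cytidine deaminase, at least 2.47-fold, all with a PPARα −/− signal at the floor. Gm2788, a predicted gene, read 2.14, 6.45, 3.25, 3.39 and 7.82 in the PPARα −/− livers and 7.87 to 9.29 in the WT livers, so that the groups only just parted (difference -3.81, adjusted p = 0.0028). It too was above the floor on only 2 of the 5 PPARα −/− arrays, and with the others set to the floor it was 5.86-fold lower.

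Part of the genes of fatty acid and triglyceride synthesis were lower after C22:6 in PPARα −/− livers. Of 28 measured genes 10 were lower and none was higher (median -0.48), whereas 1 was lower with the vehicle (median 0.08). Without single arrays 7 to 11 were lower and at most 1 was higher after C22:6. No gene of the list was called when its difference after C22:6 was tested against that with the vehicle. Srebf1, the transcription factor that drives fatty acid synthesis, read 6.36, 5.13, 6.27, 6.22 and 4.63 in the PPARα −/− livers and 7.27, 7.63, 9.13, 7.86 and 7.50 in the WT livers, a 4.44-fold lower signal (difference -2.15, SE 0.42, adjusted p = 0.0013). The vehicle livers read higher, 7.16 to 8.42 in the PPARα −/− mice and 8.49 to 10.11 in the WT mice (difference -1.26, adjusted p = 0.18). Elovl3, an elongase, was lower by 2.08 (SE 0.49, adjusted p = 0.0054). Fasn, fatty acid synthase, read 7.76, 6.19, 6.87, 7.52 and 8.23 in the PPARα −/− livers and 7.95 to 9.40 in the WT livers, with a difference of -1.22 (adjusted p = 0.039). It lost its call in 7 of 18 fits without 1 array, most clearly without replicate 2 of the PPARα −/− C22:6 livers, where the difference was -0.94 (adjusted p = 0.107). Acly (0.26) and Lpin2 (-0.01) differed by less than their spread. Among the genes that desaturate and elongate polyunsaturated fatty acids, the desaturase Fads2 was not called (-0.47, adjusted p = 0.13).

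A few genes of cholesterol synthesis were higher in PPARα −/− livers. Sqle, squalene epoxidase, read 7.05, 5.69, 4.77, 7.23 and 8.37 in the PPARα −/− livers after C22:6, against 2.35, 2.01, 3.16, 2.46 and 2.02 in the WT livers, at least 3.21-fold higher (adjusted p = 4.5e-05). Cyp51, the lanosterol demethylase, was higher by 2.65 (SE 0.49, adjusted p = 0.00097), and Msmo1, the methylsterol oxidase that follows it, by 2.44 (SE 0.54, adjusted p = 0.0039). Only 2 of the 5 WT arrays were above the floor for Cyp51, and with the others set to the floor its difference was 2.22. Sqle, Cyp51 and Msmo1 were called in the vehicle livers too, at differences of 4.06, 2.57 and 2.34. The vehicle call of Msmo1 was lost in 13 and that of Cyp51 in 2 of 18 fits without 1 array. Of 19 measured genes, 4 were higher and 1 was lower after C22:6 (median 0.62), where 13.3% of all genes were higher and 12.9% lower. Without single arrays 3 to 6 of the 19 were higher after C22:6. With the vehicle 3 were higher (median 1.08). This vehicle count was 1 without replicate 2 or replicate 3 of the WT vehicle livers and 5 without replicate 5 of the PPARα −/− C22:6 livers. Abcg5 and Abcg8, the paired units of the transporter that exports cholesterol into bile, were lower by 1.28 (adjusted p = 0.0048) and 1.76 (adjusted p = 0.00074) on the log2 scale. Both were also called with the vehicle, lower by 1.59 (adjusted p = 0.013) and 1.54 (adjusted p = 0.026). These vehicle calls were lost in 2 and 5 of 18 fits without 1 array. Mttp, which loads triglyceride onto apolipoprotein B, was lower by 0.91 (SE 0.13, adjusted p = 0.00012) after C22:6 and by 0.03 with the vehicle. These values for Mttp were not called as different from each other (adjusted p = 0.106).

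**Figure D3:**
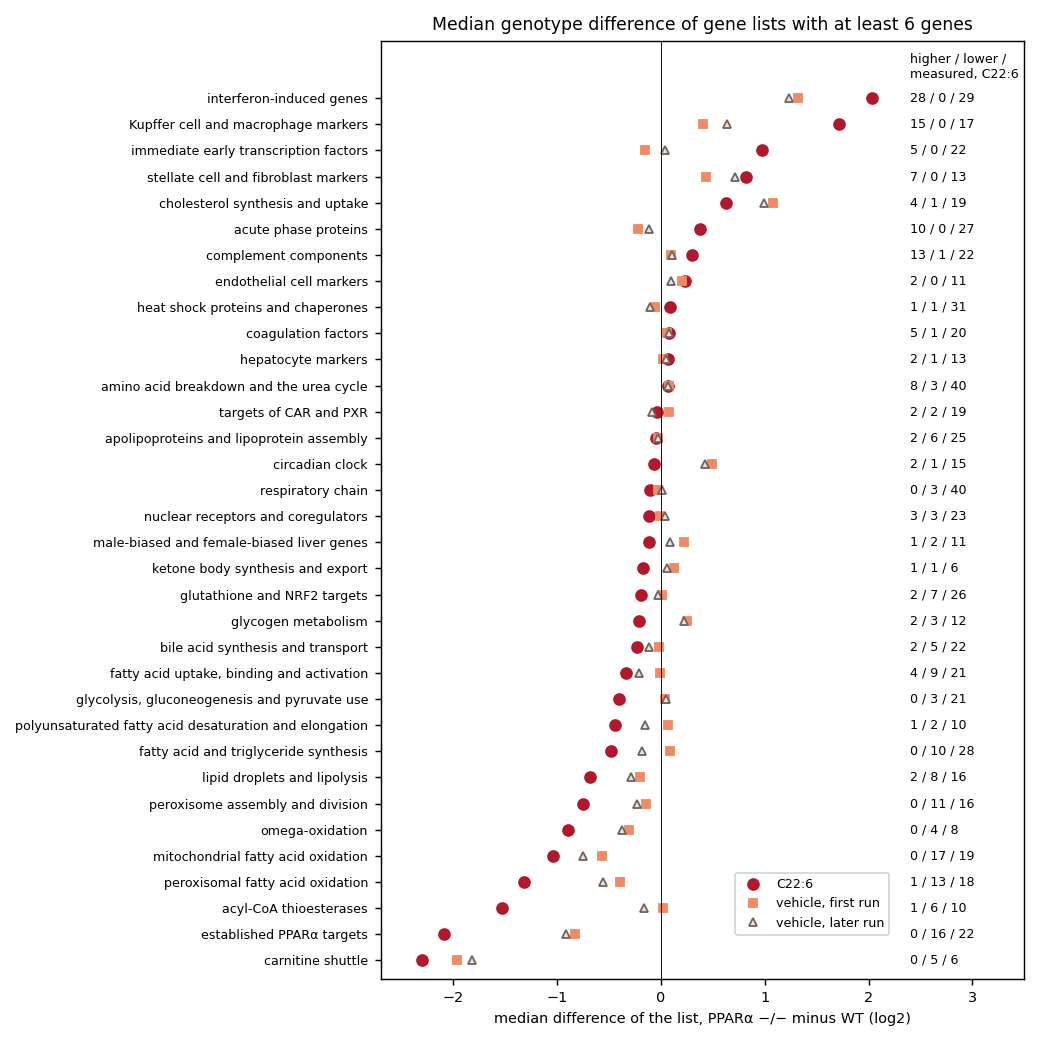
Median PPARα −/− minus WT difference (x axis, log2) of each gene list with at least 6 measured genes (y axis), after C22:6 and in both vehicle runs; the numbers give the genes higher, lower and measured after C22:6. Interferon-induced genes lie highest at 2.03 and the carnitine shuttle lowest at -2.30, and the thioesterases are near 0 in both vehicle runs.

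Among the genes that were higher in PPARα −/− livers, Sult1e1, the sulfotransferase that inactivates oestrogens, had the largest difference. It read 10.77, 10.83, 10.33, 9.88 and 10.45 in the PPARα −/− livers after C22:6, against 2.41, 5.01, 3.62, 4.09 and 2.63 in the WT livers, a difference of 6.90 (SE 0.54, adjusted p = 1.4e-07). Only 1 of the 5 WT arrays was above the floor, and with the others set to the floor the signal was 44.9-fold higher. With the vehicle the difference was 5.52 and in the later run 6.13. Blnk, an adaptor of B-cell receptor signalling, read 5.51 to 7.60 in the PPARα −/− livers and 1.89 to 2.94 in the WT livers (at least 2.91-fold higher, adjusted p = 4.6e-07), and Serpinb1a, a protease inhibitor, 4.95 to 6.88 against 1.87 to 2.80 (at least 1.77-fold higher, adjusted p = 1.5e-06). Both were as distinct with the vehicle, at differences of 4.30 and 4.74. The chemokine Cxcl14 read 7.03, 7.51, 5.98, 6.54 and 8.54 in the PPARα −/− livers and 2.15, 2.48, 3.41, 2.43 and 3.22 in the WT livers (at least 4.53-fold higher, adjusted p = 2.7e-05). It was not called with the vehicle, where the difference was 1.85 (adjusted p = 0.13). Tested against that vehicle difference, the one after C22:6 was larger by 2.53 and not called (adjusted p = 0.27).

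**Figure D4:**
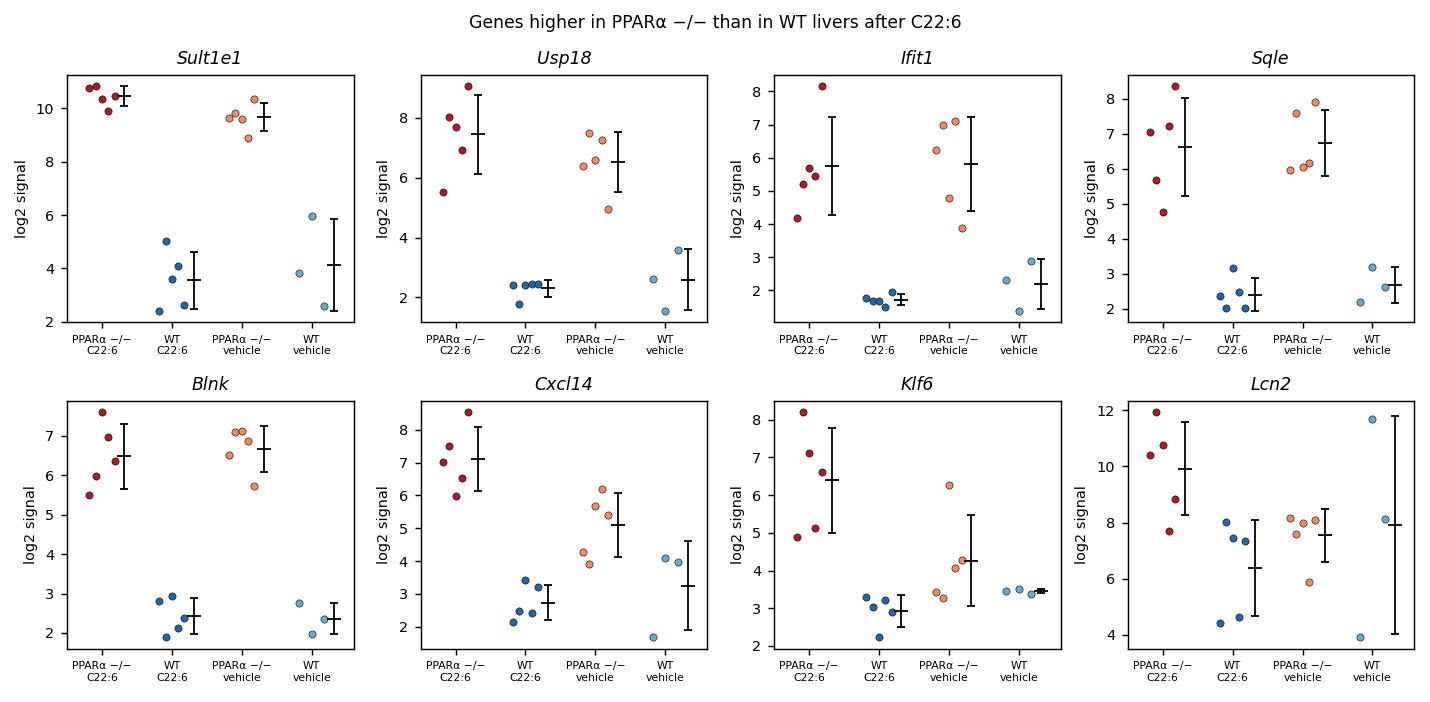
Log2 signal of 8 genes higher in PPARα −/− livers on every array of the first run, with the mean and SD beside the points; groups run PPARα −/− C22:6, WT C22:6, PPARα −/− vehicle and WT vehicle, and the y axes differ in range. Sult1e1, Usp18, Ifit1, Sqle and Blnk are separate between the genotypes with either treatment, whereas Lcn2 overlaps after C22:6, with 7.70 in a PPARα −/− liver and 8.02 in a WT liver.

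Interferon-induced genes form the first antiviral response of a cell, and 28 of 29 measured ones were higher in PPARα −/− livers after C22:6, with none lower (median 2.03). In the vehicle livers 11 were higher in the first run (median 1.32) and 12 in the later run (median 1.24). The first-run vehicle count was 7, 6 and 7 without replicate 1, 2 and 3 of the WT vehicle livers. The mean over the list was 6.26 to 7.68 on the PPARα −/− arrays and 4.63 to 5.02 on the WT arrays after C22:6, and 6.12 to 6.96 and 4.98 to 5.36 in the first-run vehicle groups. Usp18, which dampens the interferon receptor, read 5.52, 8.01, 7.67, 6.93 and 9.06 in the PPARα −/− livers after C22:6, against 2.41, 1.79, 2.42, 2.44 and 2.46 in the WT livers. Every WT value was at the floor, and the gene was at least 5.64-fold higher (adjusted p = 7.3e-06). Ifit1, an antiviral protein that binds foreign RNA, read 4.19, 5.20, 5.70, 5.44 and 8.17 in the PPARα −/− livers and 1.49 to 1.96 in the WT livers (at least 1.74-fold higher, adjusted p = 0.00033), and Ifit3 6.69, 7.72, 7.73, 6.83 and 8.81 against 3.59 to 4.61 (at least 6.13-fold higher, adjusted p = 1.5e-05). Rsad2, the antiviral protein viperin, was at least 3.41-fold higher (adjusted p = 0.0011). Irf7, the transcription factor of the interferon response, was at least 1.08-fold higher (adjusted p = 5.4e-05). Replicate 5 of the PPARα −/− C22:6 livers was the highest of its group for 21 of the 28 genes. Of the 29 genes, 15 were at the floor on all WT C22:6 arrays, so many of these differences are bounds. B2m, the constant chain of class I molecules, was the gene not called (0.16).

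The interferon-stimulated element holds pairs of GAAA spaced by 2 bases, and a search for GAAA, any 2 bases and GAAA on either strand found it in 12 of the 25 interferon-induced genes with a promoter window (48%). It was found for 3.99% of all genes with a window, for 6.98% of the genes higher and for 2.38% of the genes lower in PPARα −/− livers after C22:6. This motif was added after the interferon values had been seen. The windows of Ifit1 (chr19:34640639-34640938, plus strand) and Ifit3 (chr19:34583279-34583578, plus strand) are shown because each holds 2 copies, in capitals and on the other strand, beginning 104 and 85 bases before the start of Ifit1 and 156 and 122 bases before that of Ifit3.
Ifit1: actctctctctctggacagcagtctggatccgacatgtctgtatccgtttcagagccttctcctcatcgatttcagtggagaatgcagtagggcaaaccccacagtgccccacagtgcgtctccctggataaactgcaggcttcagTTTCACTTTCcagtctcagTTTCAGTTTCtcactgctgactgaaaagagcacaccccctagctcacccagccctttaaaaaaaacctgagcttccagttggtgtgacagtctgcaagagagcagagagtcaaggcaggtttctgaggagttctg
Ifit3: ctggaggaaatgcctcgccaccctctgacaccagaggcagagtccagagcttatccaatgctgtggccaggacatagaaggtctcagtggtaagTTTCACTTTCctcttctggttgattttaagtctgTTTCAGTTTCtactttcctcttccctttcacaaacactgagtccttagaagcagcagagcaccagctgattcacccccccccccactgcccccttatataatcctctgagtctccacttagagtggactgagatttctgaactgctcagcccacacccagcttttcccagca

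Markers of Kupffer cells, the macrophages of the liver, were higher in the same livers. Of 17 measured markers 15 were higher and none was lower after C22:6 (median 1.72), against none called in either direction in either vehicle run (medians 0.41 and 0.63). No marker was called when its difference after C22:6 was tested against that with the first-run vehicle. Of the 17 markers, 5 were at the floor on all WT C22:6 arrays, so their differences are bounds. Clec4f, the C-type lectin that defines Kupffer cells, read 9.25, 8.86, 8.91, 9.27 and 8.89 in the PPARα −/− livers and 7.33, 7.43, 7.59, 7.27 and 7.63 in the WT livers (difference 1.59, SE 0.34, adjusted p = 0.003). Mpeg1, a pore-forming protein of macrophages, differed by 2.05 (SE 0.28, adjusted p = 5.7e-05), Timd4, a receptor for dying cells, was at least 1.09-fold higher (difference 2.22, adjusted p = 0.0025) and C1qb, a chain of complement C1q, differed by 1.80 (SE 0.39, adjusted p = 0.0033). The markers not called were Cd163 (0.72) and Aif1 (1.38). The mean over the list was 7.03 to 8.05 on the PPARα −/− arrays and 5.64 to 6.06 on the WT arrays after C22:6, with no overlap, and 4.74 to 7.33 and 5.77 to 6.38 in the first-run vehicle groups. Replicate 1 of the PPARα −/− vehicle livers was the lowest of its group for 16 of the 17 markers, and without it the vehicle median was 0.83 and 1 marker was called. In whole liver, more cells of a type and more RNA per cell cannot be told apart. Kupffer cells also express interferon-induced genes, and the part of these cells in the interferon result was not tested.

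**Figure D5:**
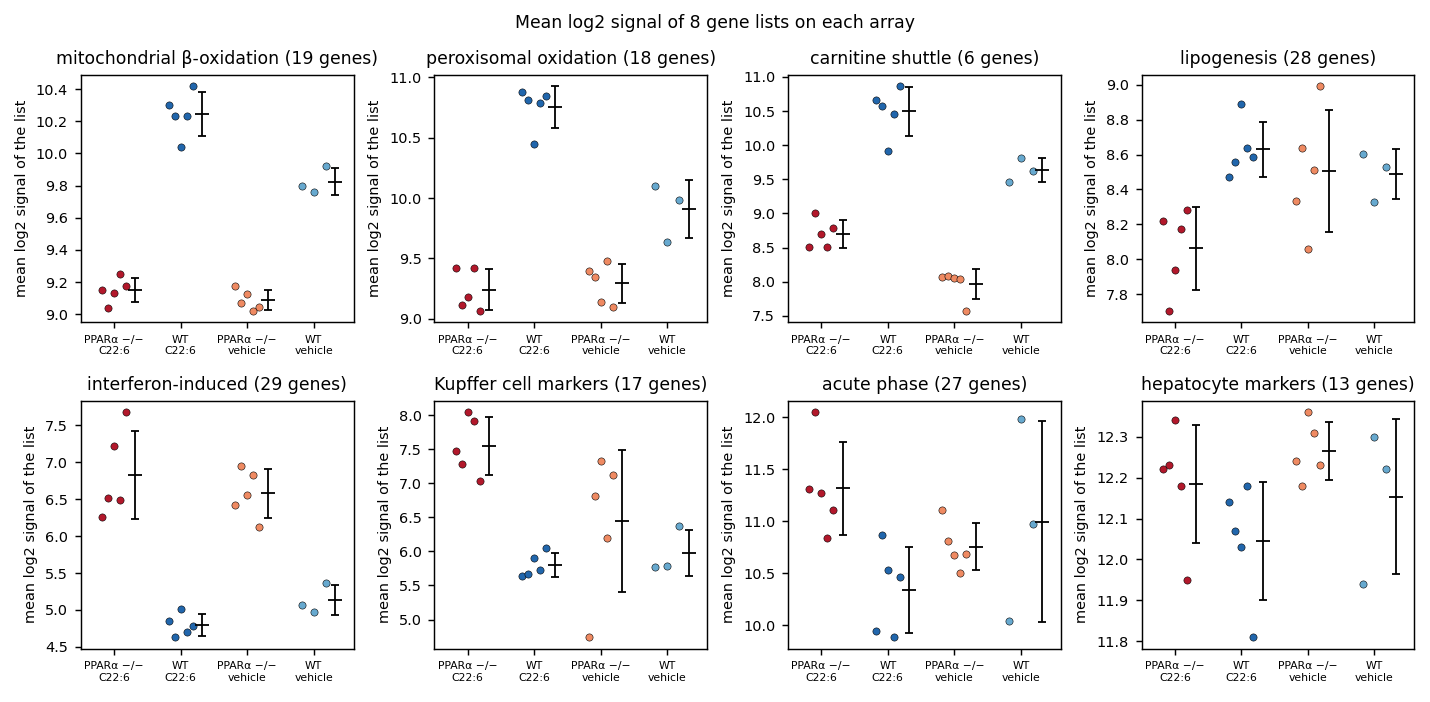
Mean log2 signal over 8 gene lists on every array of the first run, with the mean and SD beside the points; groups run PPARα −/− C22:6, WT C22:6, PPARα −/− vehicle and WT vehicle, and the y axes differ in range. The genotypes are separate with either treatment for the mitochondrial, peroxisomal, carnitine and interferon lists, and after C22:6 but not with the vehicle for lipogenesis and the Kupffer cell markers.

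Other cell types moved less or rested on few markers. Of 13 stellate cell and fibroblast markers 7 were higher and none was lower after C22:6 (median 0.82). None was called in either vehicle run, where the medians were 0.43 in the first run and 0.71 in the later run. The markers higher after C22:6 were led by Col3a1, a fibrillar collagen chain. It read 7.16, 7.92, 8.69, 6.47 and 5.97 in the PPARα −/− livers and 3.95, 3.37, 5.26, 3.78 and 3.21 in the WT livers (difference 3.33, SE 0.70, adjusted p = 0.0025). Only 1 of the 5 WT arrays was above the floor for Col3a1, and the difference was 2.25 with the others set to the floor. Acta2, the actin of activated stellate cells, differed by 0.55 and was not called. Of 11 endothelial markers 2 were higher (4 without replicate 3 of the PPARα −/− vehicle livers), and of 13 hepatocyte markers 2 were higher and 1 was lower. Of 2 measured neutrophil markers, S100a8 read 7.08, 7.37, 6.18, 3.89 and 4.40 in the PPARα −/− livers, against 2.47 to 3.15 in the WT livers (at least 1.80-fold higher, adjusted p = 0.027), and it lost its call in 4 of 18 fits without 1 array, most clearly without replicate 2 of the PPARα −/− C22:6 livers (2.49, adjusted p = 0.0700). High S100a8 was also seen on single vehicle arrays, at 7.11 in a PPARα −/− liver and at 6.15 in a WT liver.

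Acute phase proteins, made by hepatocytes in response to cytokines, depended on single arrays. After C22:6, 10 of 27 were higher in PPARα −/− livers and none was lower (median 0.38), but only 4 were without replicate 2 of the PPARα −/− C22:6 livers, as without replicate 1 or replicate 4 of the WT C22:6 livers, and 6 without replicate 3 of the PPARα −/− C22:6 livers. None was called with the vehicle. Lcn2, lipocalin-2, read 10.40, 11.94, 10.77, 7.70 and 8.83 in the PPARα −/− livers and 4.42, 8.02, 7.44, 4.62 and 7.35 in the WT livers, with overlap (difference 3.55, SE 1.17, adjusted p = 0.036). It lost its call in 5 of 18 fits without 1 array, and without replicate 1 of the WT C22:6 livers it differed by 3.07 (adjusted p = 0.0918). Orm2, orosomucoid, differed by 2.26 (SE 0.52, adjusted p = 0.0044), at 7.93 to 9.91 in the PPARα −/− livers and 5.77 to 6.92 in the WT livers. Metallothionein Mt2, a metal-binding protein, read 10.62 to 12.24 in the PPARα −/− livers and 6.53, 10.55, 7.74, 6.58 and 8.09 in the WT livers (difference 3.40, SE 0.94, adjusted p = 0.015), and 5.61 to 12.12 in WT livers with the vehicle. Replicate 2 of the PPARα −/− C22:6 livers was the highest of its group for 37 of 49 genes of the acute phase and immediate early lists. Complement components showed a steadier pattern, with 13 of 22 higher and 1 lower, and 9 to 13 higher without single arrays. The higher ones included the 3 C1q chains, which are Kupffer cell markers as well.

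Single genes of the immediate early, oxidative stress and amino acid responses were higher in PPARα −/− livers. Klf6, a zinc finger transcription factor, read 4.88, 8.20, 7.11, 5.14 and 6.62 in the PPARα −/− livers and 2.23 to 3.30 in the WT livers (at least 2.74-fold higher, adjusted p = 0.00045), and Btg2, an antiproliferative gene, 6.75 to 8.75 against 4.87 to 5.79 (difference 2.55, SE 0.56, adjusted p = 0.0034). With the vehicle Btg2 read 5.42 to 7.42 in the PPARα −/− livers and 4.62, 8.43 and 7.29 in the WT livers, so its level varied widely there. Of 22 immediate early genes 5 were higher and none was lower after C22:6 (9 without replicate 1 and 8 without replicate 4 of the PPARα −/− C22:6 livers), and Fos (1.74) and Egr1 (1.94) were not called. Hmox1, haem oxygenase, read 6.38, 9.65, 7.41, 6.49 and 8.52 in the PPARα −/− livers and 4.69 to 5.53 in the WT livers (difference 2.70, SE 0.53, adjusted p = 0.0015). The list of glutathione genes and NRF2 targets to which it belongs had 7 lower and 2 higher of 26, the lower ones including Gstm4, a glutathione transferase (-1.81, adjusted p = 0.00022). Asns, asparagine synthetase, a gene of the amino acid response, read 6.85 to 8.79 in the PPARα −/− livers and 4.12 to 5.76 in the WT livers (difference 2.69, SE 0.50, adjusted p = 0.00099). With the WT arrays below the floor set to it, the difference of Asns was 2.37.

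Several other lists held few calls. Of 40 genes of amino acid breakdown and the urea cycle 8 were higher and 3 lower (median 0.06), and of 31 heat shock proteins and chaperones 1 was higher and 1 lower, with 9 lower without replicate 5 of the PPARα −/− C22:6 livers. Of 21 genes of glycolysis, gluconeogenesis and pyruvate use 3 were lower, with Gpd2, the mitochondrial glycerol phosphate dehydrogenase, at -1.75 (SE 0.16, adjusted p = 8.5e-07). Among 23 nuclear receptors and coregulators 3 were higher and 3 lower. Ppargc1a, the coactivator of fasting metabolism, was higher by 1.64 (SE 0.41, adjusted p = 0.0085), at 5.91 to 7.55 in the PPARα −/− livers and 4.17 to 5.17 in the WT livers. The xenobiotic receptor Nr1i2 was lower by 1.41 on the log2 scale (adjusted p = 0.0012), or by 0.65 with the 4 PPARα −/− arrays below the floor set to it, while the partner receptor Rxra read 8.56 to 8.87 in the PPARα −/− livers and 8.71 to 9.03 in the WT livers (difference -0.16, adjusted p = 0.23). Nr1i3 was not called either (-0.47, adjusted p = 0.23), and Ahr, the dioxin receptor, was higher by 0.89 (adjusted p = 0.0023). Txnip, an inhibitor of thioredoxin, was lower by 1.24 on the log2 scale (adjusted p = 0.0012), and the fatty acid transporter Cd36 read 8.56 to 9.72 in the PPARα −/− livers and 8.00 to 8.87 in the WT livers (difference 0.70, adjusted p = 0.11).

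Of the 6661 genes, 130 were called in the same direction in all 3 genotype comparisons (C22:6 livers and both vehicle runs), 45 higher and 85 lower. In the first-run vehicle livers 1.4% of all genes were called higher and 2.42% lower, and in the later run 1.13% and 1.64%. Among those described above, Cyp4a14, Vnn1, Cox6b2, Rab30, Plin5, Slc25a20, Cpt2, Eci1 and Decr2 belonged to the lower ones, and Sult1e1, Usp18, Ifit1, Ifit3, Blnk, Sqle and Serpinb1a to the higher ones.

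The difference between the genotypes was tested as larger or smaller after C22:6 than with the vehicle, and 17 probesets passed. The clearest was Ddhd2, a phospholipase and triglyceride hydrolase, which read 5.57, 5.56, 5.55, 5.70 and 5.25 in the PPARα −/− livers and 7.87, 7.79, 7.70, 7.88 and 8.04 in the WT livers after C22:6, and 5.62 to 5.79 and 6.54 to 6.79 with the vehicle. Its difference of -2.33 after C22:6 exceeded that of -0.98 with the vehicle by -1.35 (SE 0.14, adjusted p = 0.00043), and the call held in all 18 fits without 1 array. Ehhadh followed with a further -2.09 (adjusted p = 0.036), Alpl, alkaline phosphatase, with -2.35 (adjusted p = 0.036), Slc25a42, the mitochondrial coenzyme A carrier, with -1.33 (adjusted p = 0.036), Bmpr1a, a BMP receptor, with -0.99 (adjusted p = 0.021) and Elmod3 with -2.0 (adjusted p = 0.047). Alpl read 3.34 to 4.67 in the PPARα −/− livers and 6.16 to 7.41 in the WT livers after C22:6, against 4.18 to 4.76 and 4.24 to 5.14 with the vehicle, so that only the WT livers given C22:6 stood out. Every PPARα −/− signal of Alpl lay below the floor with either treatment. Its measured difference after C22:6 was -2.48, and -1.65 with those signals set to the floor, so its value in this test is not exact. The calls of Ehhadh, Alpl, Slc25a42 and Elmod3 were lost in 12 to 14 of the 18 fits without 1 array, each at an adjusted p of 0.127 without replicate 2 of the WT vehicle livers, where the values were -1.91, -2.11, -1.21 and -2.08; that of Bmpr1a was lost in 6 (adjusted p = 0.0684 without replicate 1 of the WT C22:6 livers, at -0.97). The other 2 probesets of Bmpr1a were not called in this test (-0.18 and -0.38, adjusted p = 0.83 and 0.48), and the call was lost with the later-run vehicle livers (adjusted p = 0.153).

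The remaining probesets of this test, named because they complete the set of calls and not by the rule for named genes, were second probesets or carried no single gene symbol. Retsat, retinol saturase, read 6.91, 6.21, 6.82, 7.09 and 7.48 in the PPARα −/− livers after C22:6 and 12.03, 11.53, 11.19, 11.77 and 11.94 in the WT livers, and 7.16 to 7.80 and 10.25 to 10.74 with the vehicle, a further difference of -1.82. Acot4 (-2.36), Cyp4a31 (-3.99), Rab30 (-2.22), a second Elmod3 probeset (-1.96), Wdr73 (-1.14), Mtap (-2.18) and Entpd5 (-1.49) went the same way, with 2 probesets without a single symbol at -1.29 and -6.83. The brightest probeset of Rab30, described above, did not change in this test (0.01, adjusted p = 0.997). That of Cyp4a31 was not called either (-2.22, adjusted p = 0.31). Among the probesets of this paragraph each call held in 3 to 7 of the 18 fits without 1 array. With the later-run vehicle livers in the test, 6 of the 17 calls were kept. Of all 17 probesets, 7 were at the floor on every PPARα −/− C22:6 array. These were the probesets of Alpl, Acot4, Cyp4a31, Rab30, Wdr73 and Mtap and the second one of Elmod3. Selenos, a selenoprotein of the endoplasmic reticulum, was the only positive call, at 1.12, and it was lost with the later-run vehicle livers (adjusted p = 0.392) and with the replicate block (adjusted p = 0.0609). Acot3, whose difference changed by -6.07 between the settings, missed the threshold (adjusted p = 0.068), as did Pdk4 at -3.49 (adjusted p = 0.21). Set against their own vehicle livers, the PPARα −/− livers given C22:6 had 6 probesets higher and 9 lower, and the WT livers 103 higher and 14 lower, contrasts that share their arrays with those above.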

How the data were processed

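Liver RNA of single mice was hybridised to Affymetrix whole-genome mouse GeneChip arrays. The authors made the deposited linear intensity values with GC-RMA (GCRMA version 2.20 in the submitters' processing notes), which summarises the probes of a probeset after correction for background by base content, normalized them between arrays and kept probesets that passed a filter on the interquartile range. The filter removes flat probesets, so shares of called probesets are shares of variable ones. No depth applies to arrays, and the number of mice limits the precision. Every group holds separate mice as far as the labels show.

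The table held 11463 probesets, of which 51 control probesets were left out. Intensities were taken to log2 and fitted with limma (version 3.58.1, R 4.3.3) in 1 model of 18 first-run arrays with 4 groups: PPARα −/− C22:6, WT C22:6, PPARα −/− vehicle and WT vehicle. Calls are at a Benjamini-Hochberg adjusted p under 0.05 over 11412 probesets. The later-run vehicle livers had a fit of their own. The fit was tested on simulated data. Of the probesets, 10279 had 1 gene symbol in the platform annotation, 406 had several and 727 had none, and a gene was represented by its probeset with the highest mean (6661 genes). A probeset below the 10th percentile of its array on every array of a group had only a bound there, the 10th percentile standing in for that group's lower values.

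The comparison, its 39 gene lists and the tests were chosen with earlier results of these data known, so counts over lists are descriptions. The rule for named genes took the 12 largest separate differences each way after C22:6, the 8 largest each way of the interaction, the 6 largest each way shared with the vehicle, the 4 largest called genes of each list, and the genes the study discusses. Other list members (among them Acadvl, Acadl, Acadm, Hadha, Acaa1b, Acot4, Cpt1a, Clec4f, Orm2, Irf7, Fasn, Plin2 and the members not called) are named with their values already known.

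Alternatives were all 56 first-run or all 93 arrays in the fit, only the groups compared, filters on spread and signal, an intensity trend, array weights, median centring, quantile normalization, an unadjusted p under 0.01 (the study's threshold), a fold of at least 1.5, the replicate number as a block, later-run vehicle livers in the interaction, and each array left out. Leaving out both arrays that stand apart, or the 3 arrays of lowest weight, was added after seeing the data. Promoters came from RefSeq (GRCm38.p6).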

Additional observations from a re-analysis of the deposited data

Results flagged for a closer look

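Single arrays lay far from the others of their group in 20 of 303 groups of 5 arrays tested for the named genes (6.6%, where chance alone gives about 5%). Replicate 3 of the WT C22:6 livers accounted for 5 of them: it read low for Acot1 (10.05, the others 11.30 to 11.59), Acot4 (7.0, the others 8.02 to 8.41), Crat (8.37, the others 9.49 to 9.86) and Eci2 (11.34, the others 11.67 to 11.78), and high for Acly (9.73, the others 7.72 to 8.12). The first 4 of these are targets or enzymes of fatty acid oxidation and Acly is an enzyme of fatty acid synthesis. The other WT C22:6 arrays that lay apart were replicate 1 for Nr1i2 (6.12), replicate 2 for Usp18 (1.79, at the floor), replicate 4 for Btg2 (5.79) and replicate 5 for Etfa (11.14).

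Replicate 3 of the PPARα −/− vehicle livers read high for Aldh3a2 (8.38, the others 6.89 to 7.14) and Txnip (8.86, the others 7.76 to 7.99), and low for Srebf1 (7.16, the others 8.15 to 8.42) and Pxmp4 (4.85, the others 5.91 to 6.16). In the same group, replicate 1 stood out for Cyp4a14 (2.26, at the floor), replicate 2 for Alpl (4.18), replicate 4 for Lcn2 (5.88, the others 7.59 to 8.16) and replicate 5 for Alb (13.71). Among the PPARα −/− C22:6 livers, replicate 5 read high for the hormone Fgf21 (4.56, the others 2.44 to 2.80), replicate 2 low for B2m (12.68, the others 12.83 to 12.89) and replicate 3 low for Acadvl (9.17, the others 9.28 to 9.32).

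The genotype difference itself differed between C22:6 and the vehicle (difference after C22:6 minus that with the vehicle, adjusted p under 0.05 by limma) for Ddhd2 (-1.35), Bmpr1a (-0.99), Alpl (-2.35), Slc25a42 (-1.33), Ehhadh (-2.09), Elmod3 (-2.0 and -1.96 for its 2 probesets) and Retsat (-1.82). It also did for probesets of Acot4 (-2.36), Cyp4a31 (-3.99), Rab30 (-2.22), Wdr73 (-1.14), Mtap (-2.18), Entpd5 (-1.49) and Selenos (1.12), and for 2 probesets without a single symbol (-1.29 and -6.83).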

How the results depend on the processing

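After C22:6 the counts of probesets higher and lower in PPARα −/− livers stayed within 1.5 times of 1409 and 1410 under the alternatives run, except for the requirement of a 1.5-fold difference, which left 912 and 904; without single arrays they were 1089 to 1487 and 1135 to 1450. The vehicle counts of 146 higher and 267 lower moved more. They were 428 and 532 with all 56 first-run arrays, 425 and 511 with all 93 arrays, 310 and 438 with array weights and 397 and 478 at an unadjusted p under 0.01. Without single arrays they were 64 to 185 higher (lowest without WT vehicle replicate 2) and 172 to 304 lower (lowest without WT vehicle replicate 3, highest for both without PPARα −/− C22:6 replicate 2), and 76 were higher without both arrays that stand apart (PPARα −/− C22:6 replicate 2 and WT vehicle replicate 2) and 96 without the 3 arrays of lowest weight. The interaction counts of 1 positive and 16 negative were the least stable: 91 and 235 with 56 arrays, 94 and 232 with 93 arrays, 110 and 294 at an unadjusted p under 0.01, and 30 negative with array weights. No positive value was called with quantile normalization, with the later-run vehicle livers (0 positive, 7 negative) or without those 2 or 3 arrays (0 positive, 1 negative). Without single arrays 0 to 6 were positive and 1 to 45 negative, with a single call left in 6 of the 18 fits and most calls without WT C22:6 replicate 3. With the replicate block, 9 negative values were called. Replicate numbers do not pair the mice as far as the labels show. With the group mean of each probeset subtracted, same-numbered livers of both genotypes correlated at 0.0119 to 0.404 after C22:6. These correlations were over 0.1 in 3 of 5 pairs. The cause of the shifts in the counts was not tested. At an unadjusted p under 0.05, 4269 probesets differed after C22:6, 1893 with the vehicle and 1286 in the interaction. No called difference of a named gene reversed under any alternative.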
